A study of Mus musculus with 18 samples.

Results

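Chemokines are small secreted or membrane-bound proteins that draw white blood cells towards the tissue that makes them. The genes described here are 8 chemokine ligands (Cxcl1, Cxcl2, Cxcl5, Cxcl10, Cxcl16, Cx3cl1, Ccl2 and Ccl20) and 2 chemokine receptors (Ccr2 and Cx3cr1). They were chosen by name, by matching the gene identifiers to GENCODE mouse symbols, and are 10 of the 55401 genes counted. RNA was sequenced from primary cholangiocytes, the lining cells of the bile ducts, of mice with polycystic liver disease (PLD), a disorder in which ducts enlarge to fluid-filled cysts, and of wild-type (WT) mice. There were 6 groups of 3 libraries: PLD and WT mice 1 month after tamoxifen, PLD and WT mice 2 months after tamoxifen, PLD mice given CPTH6 and PLD mice given ML324, the library titles of both treated groups carrying the time 3 months. The compound CPTH6 blocks histone acetyltransferases of the Kat2a and Kat2b kind, while ML324 blocks demethylases of the KDM4 family. Livers were perfused with collagenase, the biliary tree was freed of hepatocytes, minced and digested, and cells were captured on beads through EpCAM, a surface protein of epithelial cells. The labels name neither the gene that tamoxifen inactivated nor the Cre driver, the strain, the age of the mice, or the dose and duration of either compound. They do not state whether replicates are separate mice or pools, so a p-value here measures the spread of these samples alone, and that spread may be technical.

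Chemokine ligands bind receptors on leukocytes in set pairs. Cxcl1, Cxcl2 and Cxcl5 act on Cxcr2 of neutrophils, Cxcl10 on Cxcr3 of activated T cells, Cxcl16 on Cxcr6, Ccl20 on Ccr6, Ccl2 on Ccr2 of inflammatory monocytes, and Cx3cl1 on Cx3cr1 of patrolling monocytes and tissue macrophages. Cxcl16 and Cx3cl1 differ from the others in being made as transmembrane proteins, from which metalloproteases such as Adam10 and Adam17 cut a soluble form. Bile duct cells are known to release several of these ligands when stimulated by bacterial products or cytokines, while Ccr2 and Cx3cr1 are textbook genes of myeloid cells and not of the duct epithelium.

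Most ligands of this group are classical targets of NF-kB, so the start regions of the ligands whose values differed between groups below, and of Cxcl1 beside its neighbour Cxcl2, are shown first. RefSeq (GRCm38.p6, the assembly of mm10) gave a window of 250 bases before to 50 bases after the start for 7 of the 10 genes, all but Cxcl5, Cxcl16 and Ccl2. Each is printed 5′ to 3′ on the strand of its gene, and capitals mark matches to the letters searched on both strands: GGG and TTCC with 3 bases of any kind between them (NF-kB type), TGANTCA (AP-1 type), and a pair of GAAA with 2 bases of any kind between them (IRF type, for interferon regulatory factors).
Cxcl1, chr5:90890995-90891294, plus strand: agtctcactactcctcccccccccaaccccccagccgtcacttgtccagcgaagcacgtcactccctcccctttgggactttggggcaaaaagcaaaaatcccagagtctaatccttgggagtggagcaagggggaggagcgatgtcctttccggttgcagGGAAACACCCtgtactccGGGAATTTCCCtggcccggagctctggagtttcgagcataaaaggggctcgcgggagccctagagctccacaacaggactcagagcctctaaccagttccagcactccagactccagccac
Cxcl2, chr5:90903649-90903948, plus strand: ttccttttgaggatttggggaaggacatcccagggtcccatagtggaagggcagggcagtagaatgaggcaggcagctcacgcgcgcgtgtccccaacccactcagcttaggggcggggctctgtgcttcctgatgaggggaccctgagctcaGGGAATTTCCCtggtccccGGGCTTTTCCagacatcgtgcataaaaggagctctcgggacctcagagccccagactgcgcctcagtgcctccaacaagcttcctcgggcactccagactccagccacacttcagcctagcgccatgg
Cxcl10, chr5:92348840-92349139, minus strand: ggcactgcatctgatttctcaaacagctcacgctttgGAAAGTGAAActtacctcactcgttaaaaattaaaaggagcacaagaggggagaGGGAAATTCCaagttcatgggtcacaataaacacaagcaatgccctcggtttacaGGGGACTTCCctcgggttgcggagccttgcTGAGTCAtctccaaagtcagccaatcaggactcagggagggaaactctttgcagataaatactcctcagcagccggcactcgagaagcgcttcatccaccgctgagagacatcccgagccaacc
Ccl20, chr1:83116516-83116815, plus strand: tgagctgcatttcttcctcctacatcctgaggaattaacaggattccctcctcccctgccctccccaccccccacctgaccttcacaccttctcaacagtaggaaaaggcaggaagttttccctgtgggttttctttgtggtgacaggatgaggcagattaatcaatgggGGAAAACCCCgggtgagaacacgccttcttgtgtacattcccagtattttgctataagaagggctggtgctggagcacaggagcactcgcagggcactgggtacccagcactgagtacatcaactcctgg
Cx3cl1, chr8:94771930-94772229, plus strand: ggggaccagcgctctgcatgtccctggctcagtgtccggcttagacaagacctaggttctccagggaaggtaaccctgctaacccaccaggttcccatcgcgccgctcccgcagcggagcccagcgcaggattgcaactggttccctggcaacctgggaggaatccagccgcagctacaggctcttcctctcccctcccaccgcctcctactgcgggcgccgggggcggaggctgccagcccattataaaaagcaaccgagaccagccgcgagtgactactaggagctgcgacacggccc
Cxcl1 and Cxcl2 each held 2 stretches in capitals with 3 NF-kB-type matches in all, because the palindromic stretch was read on both strands. In Cxcl1 the matches began 89, 71 and 70 bases before the start, and in Cxcl2 97, 96 and 78 bases before it. Cxcl10 held 2 NF-kB-type matches, 159 and 104 bases before the start, with 1 IRF-type match at 213 and 1 AP-1-type match at 74 bases. Ccl20 held 1 NF-kB-type match 80 bases before the start. Neither the Cx3cl1 window nor those of Ccr2 and Cx3cr1 held any of the 3 motifs. Among all 32851 windows of this length, 5.555% held the NF-kB-type, 7.808% the AP-1-type and 3.443% the IRF-type letters. A match in letters describes the sequence and says nothing of whether a factor binds there.

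Total counts per library ran from 16345740 to 29277311. Libraries carried markers of the labelled cells: Krt19, the keratin of bile duct epithelium, had 2825 ± 211 CPM (counts scaled to library size after TMM normalisation, mean ± SD, n = 3) in PLD and 230.0 ± 57.1 CPM in WT at 2 months, and Krt7 and Epcam were detected in all 18 libraries. Sctr, of the same list, went the other way, with 0.531 CPM in PLD and 2.49 CPM in WT at 2 months. It averaged 0.053 CPM with CPTH6 and 0.193 CPM with ML324. Cftr averaged 11.2 to 24.2 CPM per group. The 12 cholangiocyte markers summed to 7580 to 10140 CPM in PLD and 3130 to 9738 CPM in WT libraries at 1 month, to 10140 to 12380 CPM in PLD and 2406 to 4434 CPM in WT at 2 months, and to 16070 to 20200 CPM with CPTH6 and 13750 to 15810 CPM with ML324. Markers of other cells were present too. The 10 hepatocyte markers summed to 2533 to 4090 CPM in PLD and 510 to 2218 CPM in WT at 1 month. At 2 months they summed to 3138 to 6103 CPM in PLD and 680 to 969 CPM in WT. With CPTH6 the sums were 5710 to 6890 CPM and with ML324 3928 to 5186 CPM, and Alb supplied 77.1% of the list over all libraries. The 10 markers of stellate cells and fibroblasts summed to 9731 to 12450 CPM in PLD and 2412 to 14710 CPM in WT at 1 month, and to 3104 to 7259 CPM in PLD and 5475 to 12180 CPM in WT at 2 months, against 332 to 409 CPM with CPTH6 and 267 to 880 CPM with ML324. The 10 endothelial markers summed to 2269 to 4386 CPM in PLD and 1987 to 5221 CPM in WT at 1 month, to 642 to 1418 CPM in PLD and 6909 to 12300 CPM in WT at 2 months, and to 171 to 298 CPM with CPTH6 and 122 to 619 CPM with ML324. WT replicate 3 at 1 month stood apart from its group, with cholangiocyte markers at 9738 against 3219 and 3130 CPM and fibroblast markers at 2412 against 13400 and 14710 CPM, and WT replicate 1 at 2 months had counts in 40039 genes against 22780 to 30332 in the other libraries. In such bulk libraries, fewer cells of a type and less RNA per cell cannot be told apart.

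**Figure D1:**
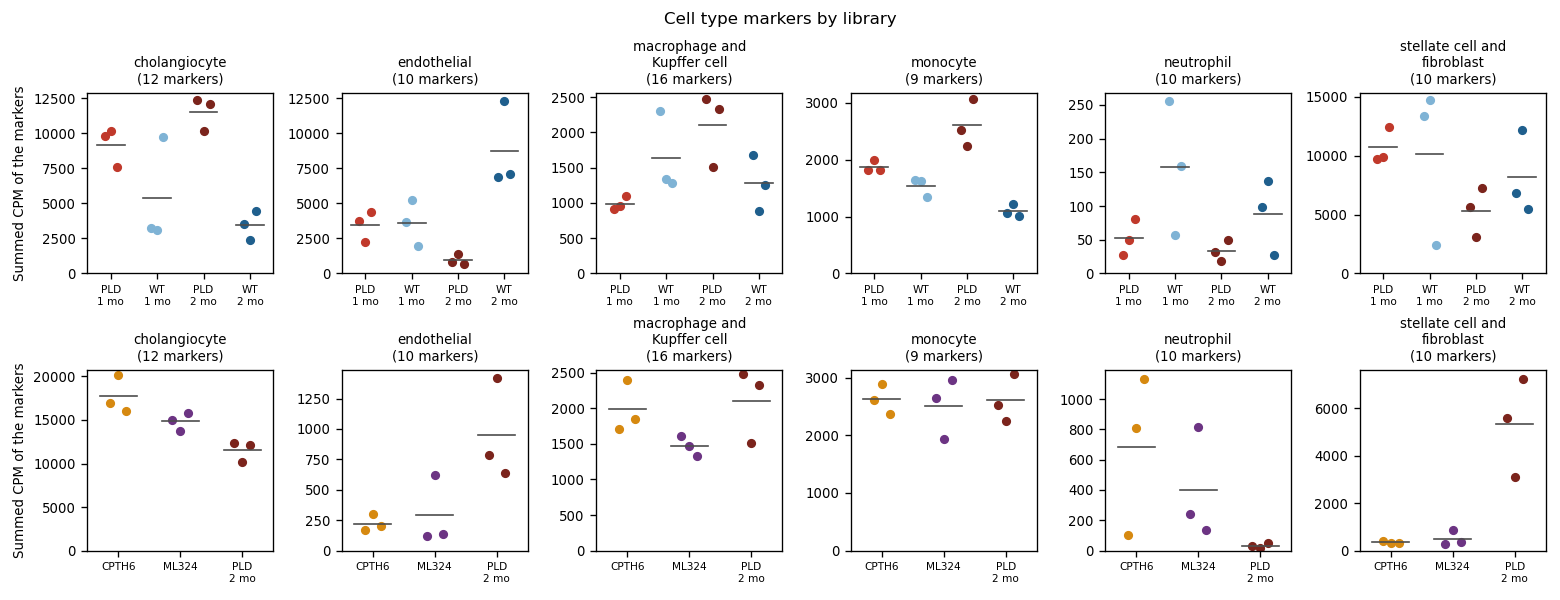
Summed CPM of the marker lists of cholangiocytes, endothelium, macrophages, monocytes, neutrophils and fibroblasts in each library (points), with the group mean as a line (n = 3), on linear axes from 0 that differ between panels. The upper panels show PLD and WT at 1 and 2 months (mo), the lower ones CPTH6, ML324 and untreated PLD at 2 months. Fibroblast markers stood at 267 to 880 CPM in treated libraries and at 3104 CPM or more in untreated PLD libraries.

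Per kilobase of exon, Cxcl1 was the most abundant of the 10 genes, with a mean over the 6 groups of 227 CPM per kb. Cxcl2 followed with 144, Cxcl16 with 96.5, Cxcl10 with 53.7, Cx3cl1 with 37.9, Cxcl5 with 37.4 and Ccl2 with 32.1 CPM per kb. Cx3cr1, with 4.29 CPM per kb, Ccl20, with 1.19, and Ccr2, with 0.446, were far lower, and Ccr2 rested on 17 to 185 counts per library. The ligands fell into steady and variable ones: the coefficient of variation between replicates was at most 19.1% in any group for Cxcl16 and 28.0% for Cx3cl1, the transmembrane pair, and its median over the groups was 29.8% to 50.4% for the other 8 genes. The partner receptors of most ligands were close to the floor of detection. Cxcr2 averaged 1.22 to 3.47 CPM per group, and Cxcr3, Cxcr6 and Ccr6 averaged at most 1.09, 0.659 and 0.338 CPM.

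**Figure D2:**
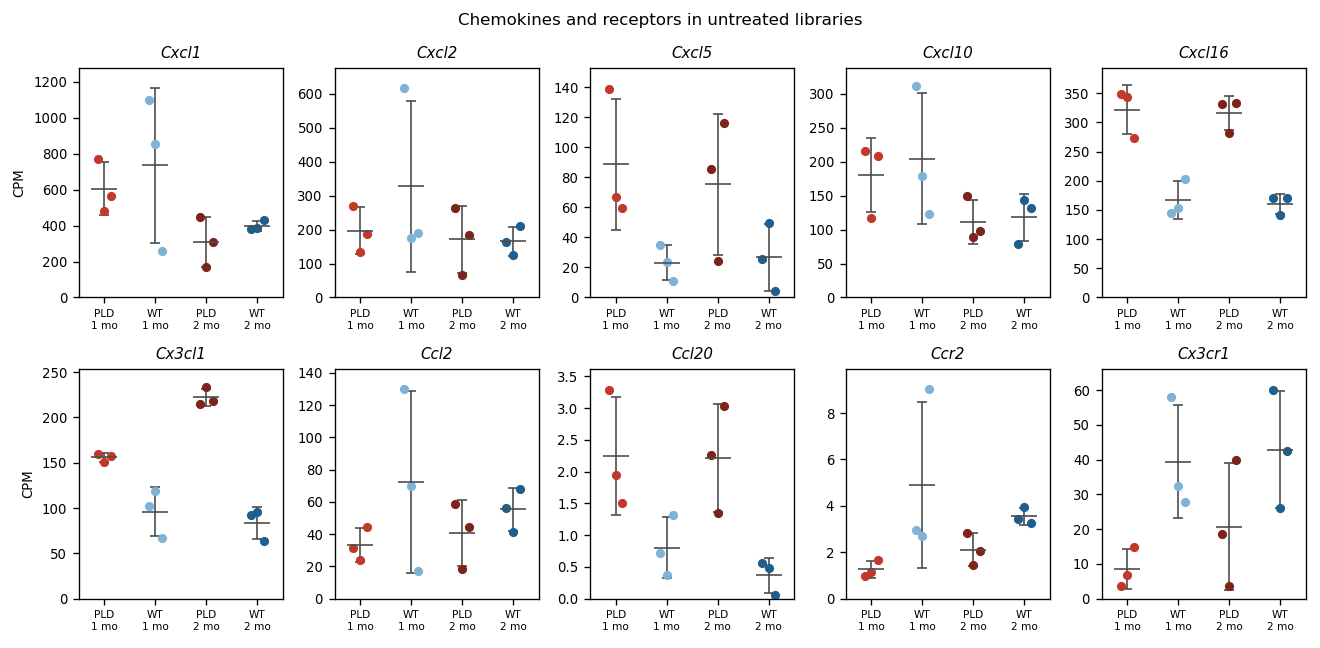
CPM of each gene in the 12 untreated libraries (points), with group mean (bar) and SD (whisker, n = 3), for PLD and WT at 1 and 2 months (mo), on linear axes from 0. In Cxcl16 and Cx3cl1 every PLD library lay above every WT library of its month.

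The first question was how the genes differ between PLD and WT ducts. The transmembrane ligands Cxcl16 and Cx3cl1 were higher in PLD, Cxcl16 at both times and Cx3cl1 at 2 months, and Ccl20 was higher at 2 months. The monocyte receptor Ccr2 was lower in PLD at 1 month. Of the 10 genes, 1 was called higher and 1 lower at 1 month, where 5.03% of the 17749 genes tested were called, 3% higher and 2.02% lower. At 2 months 3 were called higher and 0 lower, where 40.0% of all genes were called, 19.7% higher and 20.3% lower. A call is an adjusted p under 0.05 in the edgeR quasi-likelihood test, adjusted over all genes tested. At 2 months 10 genes are too few to set 3 calls apart from the share of all genes. The median log2 fold change of the 10 was 0.0045, against -0.03 over all genes. When the 6 libraries of 1 month were fitted alone, 29 of all genes and 0 of the 10 were called at 1 month.

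Cxcl16 (ENSMUSG00000018920.11, chromosome 11 from 70453983 to 70459984, mm10) encodes the ligand of Cxcr6 and also a scavenger receptor for oxidised lipoprotein. It had 349, 343 and 273 CPM in the PLD libraries and 144, 153 and 203 CPM in the WT libraries at 1 month. At 2 months it had 332, 282 and 333 CPM in PLD and 171, 141 and 170 CPM in WT. PLD libraries were above WT libraries at both times without overlap, and the highest WT value was that of replicate 3 at 1 month, the library rich in cholangiocyte markers. PLD over WT gave a log2 fold change of 0.93 ± 0.16 (SE) at 1 month (edgeR adjusted p = 0.0145) and 1.00 ± 0.16 at 2 months (edgeR adjusted p = 0.00105), a 1.90-fold and a 2.00-fold difference. The difference at 1 month was no longer called without PLD replicate 1 or 2 or WT replicate 1 or 2 (edgeR adjusted p between 0.061 and 0.0846, with log2 fold changes of 0.82 to 0.88), while that at 2 months was called under all 12 alternatives. Of the exon bases of Cxcl16, 18.3% are shared with Zmynd15 on the opposite strand, and counting without strand leaves out reads that lie over both genes. In order of group means, both treated groups stood first, then PLD at 1 and 2 months, then WT, and the gap between PLD and WT was the only one between neighbours at which library ranges were apart.

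Cx3cl1 (ENSMUSG00000031778.13, chromosome 8 from 94772009 to 94782427), or fractalkine, encodes a chemokine on a mucin stalk that tethers cells bearing Cx3cr1. It had 160.1, 150.5 and 157 CPM in PLD and 102, 119 and 66.6 CPM in WT libraries at 1 month, and 215, 233 and 218 CPM in PLD and 92.3, 95.7 and 63.4 CPM in WT libraries at 2 months. PLD libraries lay above WT libraries at both times, and the PLD replicates were close to each other. The lowest WT value at 1 month was that of replicate 3, the library rich in cholangiocyte markers. The log2 fold change at 1 month was 0.68 ± 0.20, which was not called (edgeR adjusted p = 0.0752). It was called in 2 of 12 alternatives, with no filter on low counts (edgeR adjusted p = 0.013) and in DESeq2 (adjusted p = 0.0253). Fits that left out a library did not call it (edgeR adjusted p between 0.061 and 0.231). At 2 months the log2 fold change was 1.42 ± 0.21 (edgeR adjusted p = 0.000543), 2.68-fold, called under all 12 alternatives. Whether the difference was larger at 2 months was tested as an interaction: it was 0.74 ± 0.29 on the log2 scale and not called (edgeR adjusted p = 0.151, range over the alternatives 0.0265 to 0.257), but was called at 0.95 without WT replicate 3 at 1 month (edgeR adjusted p = 0.0265). By group means, PLD at 2 months stood first, apart in range from the next group, CPTH6, and both WT groups stood last, apart in range from all others.

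Ccl20 (ENSMUSG00000026166.14, chromosome 1 from 83116766 to 83119167) encodes the ligand of Ccr6, which attracts Th17 cells and dendritic cells. It was scarce, with 3.29, 1.94 and 1.51 CPM in PLD and 0.724, 0.368 and 1.32 CPM in WT at 1 month. At 2 months it had 2.27, 1.34 and 3.04 CPM in PLD and 0.557, 0.488 and 0.0516 CPM in WT libraries, the last value being 1 count. The PLD libraries were higher without overlap at both times. Its log2 fold change was 1.47 ± 0.63 at 1 month, not called (edgeR adjusted p = 0.182), and 2.58 ± 0.68 at 2 months (edgeR adjusted p = 0.0119). Group means ran from CPTH6 through both PLD groups and ML324 to WT, and each neighbouring pair overlapped in range.

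Beside Cxcl16, Cx3cl1 and Ccl20, the makeup of the libraries differed between PLD and WT at 2 months. Of the 12 cholangiocyte markers, 9 were called higher in PLD by edgeR and 0 lower, with a median log2 fold change of 1.96, and all 10 endothelial markers were called lower, with a median of -3.28, against -0.03 over all genes. At 1 month 3 of the cholangiocyte markers were called higher and 0 lower (median 0.58), and 0 of the endothelial ones were called by edgeR or DESeq2 or had an unadjusted p under 0.05 (median -0.07). Of the 10 hepatocyte markers, edgeR called 5 higher and 3 lower in PLD at 2 months (median 1.02). At 1 month it called 1 of them higher and 0 lower (median 0.07). The part of these shifts in the ligand values was not tested.

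Of the 3 neutrophil-attracting ligands, 0 were called by edgeR at either time, and DESeq2 called 0 of the 3. Only Cxcl5 at 1 month had an unadjusted p under 0.05 in edgeR. Cxcl1 (ENSMUSG00000029380.11, chromosome 5 from 90891241 to 90893115) had 770.4, 479 and 568 CPM in PLD and 1098, 856 and 258 CPM in WT libraries at 1 month, and 450.2, 172 and 310.2 CPM in PLD and 379.9, 389 and 432 CPM in WT libraries at 2 months. The groups overlapped at both times, and the log2 fold changes of -0.30 ± 0.46 and -0.34 ± 0.46 were not called (edgeR adjusted p = 0.732 and 0.582). The means of both 1-month groups were above those of both 2-month groups, with PLD at 1 month apart in range from WT at 2 months.

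Cxcl2 (ENSMUSG00000058427.10, chromosome 5 from 90903871 to 90905938), its neighbour on the chromosome and a like ligand of Cxcr2, had 269.9, 133 and 188 CPM in PLD and 618, 176 and 189 CPM in WT libraries at 1 month. At 2 months it had 264, 66.3 and 183 CPM in PLD and 163, 124 and 209 CPM in WT libraries. The groups overlapped at both times, and the highest value was that of WT replicate 1 at 1 month. The log2 fold changes were -0.75 ± 0.56 at 1 month and 0.07 ± 0.56 at 2 months (edgeR adjusted p = 0.447 and 0.93, not called).

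Cxcl5 (ENSMUSG00000029371.7, chromosome 5 from 90759360 to 90761624), a Cxcr2 ligand typical of epithelial cells, had 139, 67.3 and 59.5 CPM in PLD and 35.1, 23.6 and 11.2 CPM in WT libraries at 1 month. At 2 months it had 85.5, 24.3 and 116 CPM in PLD and 25.7, 49.7 and 4.54 CPM in WT libraries. PLD libraries were above WT libraries at 1 month and overlapped with them at 2 months. WT replicate 3, rich in cholangiocyte markers, had the lowest value of 1 month. The log2 fold changes of 1.91 ± 0.78 and 1.52 ± 0.78 were among the larger ones of the 10 genes, and neither was called (edgeR adjusted p = 0.167 and 0.14). Both were called by edgeR with no filter on low counts (adjusted p = 1.87e-05 and 0.000231), which was 1 of 12 alternatives at each time. The standard errors of that fit were smaller, 0.34 and 0.33. At each time 0 of the 6 fits that left out a library gave a call. Their edgeR adjusted p ran from 0.176 to 0.442 at 1 month and from 0.0637 to 0.327 at 2 months.

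Cxcl10 (ENSMUSG00000034855.13, chromosome 5 from 92346638 to 92348889), the interferon-induced ligand of Cxcr3, had 216, 118 and 208 CPM in PLD and 311, 178 and 123 CPM in WT libraries at 1 month, and 149, 88.9 and 97.3 CPM in PLD and 78.7, 143 and 133 CPM in WT libraries at 2 months. PLD and WT overlapped at both times. The log2 fold changes were -0.19 ± 0.37 and -0.06 ± 0.37 (edgeR adjusted p = 0.791 and 0.908, not called), with a 95% interval at 2 months from -0.88 to 0.75.

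Ccl2 (ENSMUSG00000035385.5, chromosome 11 from 82035571 to 82037453), or MCP-1, the main ligand of Ccr2, had 31.5, 23.9 and 44.5 CPM in PLD and 130.0, 70.1 and 16.9 CPM in WT libraries at 1 month. At 2 months it had 58.5, 18.1 and 44.7 CPM in PLD and 56.3, 41.5 and 68.2 CPM in WT libraries. The lowest WT value at 1 month was that of replicate 3, the library low in fibroblast markers, and it made the groups overlap. The log2 fold changes were -1.13 ± 0.61 at 1 month and -0.43 ± 0.60 at 2 months (edgeR adjusted p = 0.282 and 0.599, not called). Without WT replicate 3 the value at 1 month was -1.60 and was called (edgeR adjusted p = 0.029, range over the alternatives 0.00584 to 0.753), and the part of fibroblast RNA in it was not tested.

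Ccr2 (ENSMUSG00000049103.14, chromosome 9 from 124101950 to 124113557), the receptor through which inflammatory monocytes leave the bone marrow and enter tissue, was barely detected. It had 0.963, 1.16 and 1.65 CPM in PLD and 2.98, 2.68 and 9.03 CPM in WT libraries at 1 month, and 2.85, 1.45 and 2.06 CPM in PLD and 3.43, 3.95 and 3.25 CPM in WT libraries at 2 months. PLD libraries lay below WT libraries at both times, and the highest value was again that of WT replicate 3 at 1 month. The log2 fold change was -1.97 ± 0.48 at 1 month (edgeR adjusted p = 0.0417) and -0.72 ± 0.46 at 2 months (edgeR adjusted p = 0.235, not called), and the difference between the times, 1.25 ± 0.66, was not called (edgeR adjusted p = 0.278). The call at 1 month was lost when any of the 3 PLD libraries or WT replicate 1 was left out (edgeR adjusted p between 0.0539 and 0.181), and without WT replicate 3 the change was -1.18 (edgeR adjusted p = 0.0312).

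Cx3cr1 (ENSMUSG00000052336.7, chromosome 9 from 119901616 to 120069879), the receptor of fractalkine, had 3.68, 6.81 and 14.9 CPM in PLD and 57.9, 32.4 and 27.8 CPM in WT libraries at 1 month. At 2 months it had 18.7, 3.65 and 39.8 CPM in PLD and 60.1, 26.2 and 42.4 CPM in WT libraries. At 1 month all PLD libraries were below all WT libraries, and at 2 months PLD libraries were spread widely and overlapped with WT. The log2 fold changes of -2.23 ± 0.74 and -1.02 ± 0.71 were not called (edgeR adjusted p = 0.101 and 0.274). DESeq2 called the difference at 1 month (adjusted p = 0.0109), and edgeR with no filter on low counts called both (adjusted p = 5.52e-07 and 0.0211). These were 2 of 12 alternatives at 1 month and 1 of 12 at 2 months. The fit with no filter gave -2.21 at 1 month with a standard error of 0.33, less than the 0.74 of the main fit. Leaving out a library gave no call at either time. The edgeR adjusted p then ran from 0.0515 to 0.315 at 1 month and from 0.0787 to 0.545 at 2 months.

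Beside both receptors, the 16 macrophage and Kupffer cell markers summed to 919 to 1093 CPM in PLD and 1277 to 2299 CPM in WT libraries at 1 month, and to 1506 to 2477 CPM in PLD and 889 to 1678 CPM in WT libraries at 2 months, with none at 0 in any group. At 1 month 1 of the 16 was called lower by edgeR, the haemoglobin scavenger receptor Cd163 (-2.58 ± 0.66). In that comparison 13 of the 16 had an unadjusted p under 0.05, DESeq2 called 10, and the median log2 fold change of the list was -1.51, against -0.05 over all genes. At 2 months 4 were lower, with Cd5l, a Kupffer cell protein, at -2.98 ± 0.53. Another 2 were higher, the lipopolysaccharide receptor subunit Cd14 at 2.22 ± 0.26 and the M-CSF receptor Csf1r at 1.53 ± 0.28. Cd14 and Csf1r averaged 680 and 607 CPM in PLD, where the list averaged 2103 CPM. In WT they averaged 148 and 213 CPM, where the list averaged 1275 CPM. The median log2 fold change of the list at 2 months was -0.34, against -0.03 over all genes. Of 9 monocyte markers, 1 was lower at 1 month, Ms4a6c (-1.93 ± 0.45), and 3 were higher at 2 months, Chil3 (5.37 ± 0.83), Plac8 (2.15 ± 0.38) and Fn1 (1.24 ± 0.19). Fibronectin, encoded by Fn1, is also made by many other cells and supplied 88.3% of the summed monocyte list. The monocyte list summed to 1815 to 1995 CPM in PLD and 1344 to 1649 CPM in WT libraries at 1 month, and to 2241 to 3072 CPM in PLD and 1019 to 1218 CPM in WT libraries at 2 months. The part of these cells in the receptor values was not tested.

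**Figure D3:**
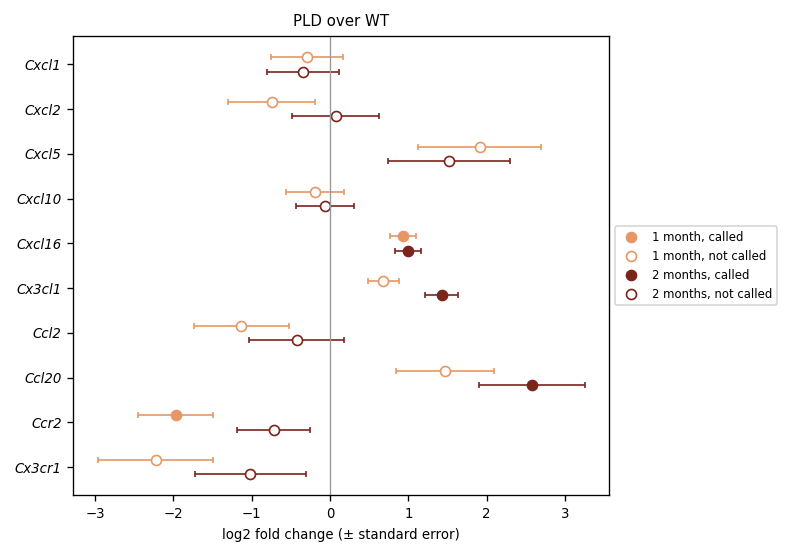
Log2 fold change of PLD over WT at 1 and 2 months for each gene, with the edgeR standard error as whisker (n = 3 libraries per group); filled points were called. Cxcl16 was called at both times, Ccr2 at 1 month, and Cx3cl1 and Ccl20 at 2 months.

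Library ranges were compared as well, on the same values as the calls, so they are no separate support for them. At 1 month 6 of the 10 genes did not overlap between PLD and WT, against 26.7% of all genes tested, with Cxcl5, Cxcl16, Cx3cl1 and Ccl20 above and Ccr2 and Cx3cr1 below. Of these only Cxcl16 and Ccr2 were called. At 2 months 4 did not overlap, Cxcl16, Cx3cl1 and Ccl20 above and Ccr2 below, against 55.4% of all genes. Of these Ccr2 was not called.

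The second question was how the genes changed with time within a genotype. Between 2 months and 1 month, 0 of the 10 genes were called in PLD by edgeR, where 9.61% of all genes were called, and 0 in WT, where 0.0507% were called. At an unadjusted p under 0.05 the counts were 1 in PLD and 0 in WT, and DESeq2 called 0 in both. The gene under that unadjusted limit was Cx3cl1, with a log2 fold change in PLD of 0.53 ± 0.20 (edgeR adjusted p = 0.113) and no overlap between the months. It was called when the 6 PLD libraries were fitted alone (edgeR adjusted p = 0.00836, range over the alternatives 0.00836 to 0.246). Cxcl1 was the other gene without overlap in PLD, with every library at 2 months below those at 1 month, while 43.5% of all genes did not overlap. Its log2 fold change was -0.94 ± 0.47 (edgeR adjusted p = 0.206, not called). It was called in 1 of 12 alternatives, with no filter on low counts (edgeR adjusted p = 0.0059, range over the alternatives 0.0059 to 0.448). The genotype by time interaction called 0 of the 10 genes in edgeR and in DESeq2, where edgeR called 5.68% of all genes, and 1 had an unadjusted p under 0.05.

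The third question was how PLD cells treated with CPTH6 or ML324 differed from untreated PLD cells and from each other. With either compound, Cxcl2 was higher and Ccl2 and Cx3cr1 were lower than in untreated PLD libraries at 2 months. Cxcl16 was called higher with CPTH6, and Cxcl10 and Cx3cl1 were called lower with ML324. Of the 10 genes, 2 were higher and 2 lower with CPTH6, where 23.1% of 16502 genes were called (9.39% higher, 13.7% lower). With ML324 1 was higher and 4 were lower, where 19.4% were called (7.96% higher, 11.4% lower). The treated libraries are labelled 3 months and the untreated ones 2 months, so treatment and time cannot be told apart. Both contrasts share the 3 untreated libraries, so their likeness is not independent.

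**Figure D4:**
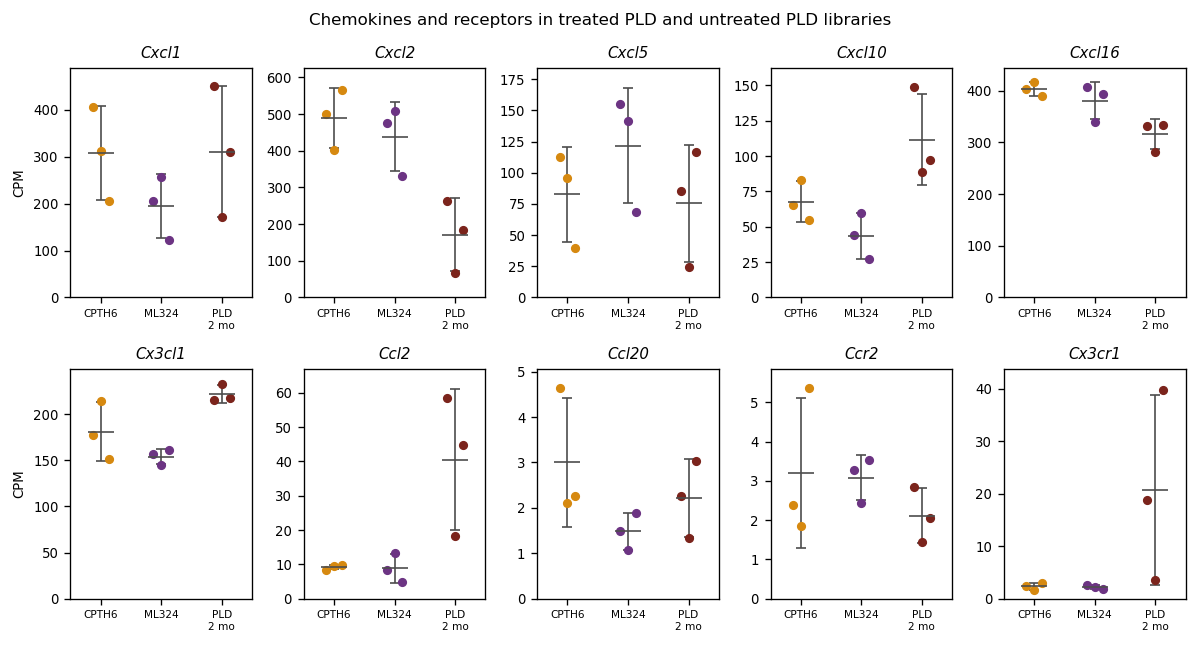
CPM of each gene in the CPTH6, ML324 and untreated PLD (2 months) libraries (points), with group mean (bar) and SD (whisker, n = 3), on linear axes from 0. All 6 treated libraries lay above the untreated ones for Cxcl2 and below them for Ccl2 and Cx3cr1.

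Cxcl2 had 499, 402 and 566 CPM with CPTH6 and 475, 508 and 332 CPM with ML324, against 264, 66.3 and 183 CPM in untreated PLD. Every treated library was above every untreated one. Its log2 fold change was 1.52 ± 0.41 with CPTH6 (edgeR adjusted p = 0.0256) and 1.40 ± 0.41 with ML324 (edgeR adjusted p = 0.0396). For CPTH6 the call was lost without PLD replicate 3 or CPTH6 replicate 1 or 3 (edgeR adjusted p between 0.0651 and 0.0781). For ML324 it was lost without PLD replicate 3 or any ML324 library (edgeR adjusted p between 0.0572 and 0.0939). The ML324 call was also lost when only the groups compared were fitted (edgeR adjusted p = 0.0783), so 6 of 11 alternatives kept it.

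The neighbouring Cxcl1 had 406, 313 and 206 CPM with CPTH6 and 205, 256 and 122 CPM with ML324, against 450.2, 172 and 310.2 CPM in untreated PLD. All 3 groups overlapped, and the log2 fold changes of -0.01 ± 0.38 with CPTH6 and -0.63 ± 0.38 with ML324 were not called (edgeR adjusted p = 0.989 and 0.279). Cxcl5 had 113, 95.5 and 39.4 CPM with CPTH6 and 155, 142 and 68.7 CPM with ML324, against 85.5, 24.3 and 116 CPM in untreated PLD. Its groups overlapped as well, and its log2 fold changes of 0.13 ± 0.55 and 0.74 ± 0.55 were not called (edgeR adjusted p = 0.889 and 0.384).

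Ccl2 had 8.48, 9.40 and 9.84 CPM with CPTH6 and 8.32, 13.3 and 4.96 CPM with ML324, against 58.5, 18.1 and 44.7 CPM in untreated PLD. The treated groups lay below the untreated one without overlap. It changed on the log2 scale by -2.13 ± 0.43 with CPTH6 (edgeR adjusted p = 0.00719) and by -2.15 ± 0.43 with ML324 (edgeR adjusted p = 0.00895), and both were called under all 11 alternatives. Beside it, all 10 fibroblast markers were called lower in both treated groups, and the part of fibroblasts in the Ccl2 value was not tested.

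Cx3cr1 had 2.38, 1.72 and 3.04 CPM with CPTH6 and 2.55, 2.20 and 1.83 CPM with ML324, against 18.7, 3.65 and 39.8 CPM in untreated PLD. Treated libraries were tightly grouped and below all untreated ones. Relative to untreated PLD, it changed on the log2 scale by -3.11 ± 0.68 with CPTH6 (edgeR adjusted p = 0.0106) and by -3.19 ± 0.70 with ML324 (edgeR adjusted p = 0.0129), and the calls were lost without CPTH6 replicate 2 (0.0504) and without ML324 replicate 3 (0.0524). Without PLD replicate 3, the highest of the untreated libraries, the changes were -2.22 with CPTH6 and -2.30 with ML324 (edgeR adjusted p = 0.0353 and 0.0381). Ccr2 had 2.38, 1.84 and 5.38 CPM with CPTH6 and 3.27, 2.44 and 3.54 CPM with ML324, against 2.85, 1.45 and 2.06 CPM in untreated PLD. Its groups overlapped, and the log2 fold changes of 0.61 ± 0.43 and 0.59 ± 0.44 were not called (edgeR adjusted p = 0.351 and 0.382).

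Beside these receptors, 7 of the 15 macrophage markers tested were lower in each treated group and 0 were higher. The Fc receptor Fcgr1 changed by -1.91 ± 0.25 with CPTH6 and -2.35 ± 0.26 with ML324, and Cd163 by -3.39 ± 0.54 and -3.99 ± 0.57. The list summed to 1705 to 2396 CPM with CPTH6 and 1327 to 1609 CPM with ML324, against 1506 to 2477 CPM in untreated PLD, and Cd14 supplied 31.4% of it over all libraries. Cd14 alone averaged 962 CPM with CPTH6, 704 CPM with ML324 and 680 CPM in untreated PLD. The list averaged 1984, 1469 and 2103 CPM in these groups. Of 10 neutrophil markers, 8 were higher with CPTH6 and 5 with ML324. Among them were the calprotectin subunits S100a9 (5.26 ± 0.97 and 4.88 ± 0.95) and S100a8 (5.13 ± 1.03 and 4.77 ± 1.02). The neutrophil list summed to 104 to 1134 CPM with CPTH6 and 137 to 818 CPM with ML324, against 18.1 to 50.3 CPM in untreated PLD, where Ly6g was at 0. By replicate, the list had 104, 807 and 1134 CPM with CPTH6, beside 499, 402 and 566 CPM of Cxcl2. With ML324 it had 242, 818 and 137 CPM, beside 475, 508 and 332 CPM of Cxcl2. The part of neutrophils in the Cxcl2 values was not tested.

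Cxcl16 had 403, 417 and 390.0 CPM with CPTH6 and 407, 339 and 394 CPM with ML324, against 332, 282 and 333 CPM in untreated PLD. Treated libraries were above untreated ones. The log2 fold change was 0.36 ± 0.11 with CPTH6 (edgeR adjusted p = 0.0453) and 0.32 ± 0.11 with ML324 (edgeR adjusted p = 0.0742, not called), and the CPTH6 call was lost when any of the 6 libraries was left out (edgeR adjusted p between 0.072 and 0.121). Cx3cl1 had 177, 215 and 152 CPM with CPTH6 and 157, 145 and 161 CPM with ML324, against 215, 233 and 218 CPM in untreated PLD. Treated libraries lay below untreated ones, with a log2 fold change of -0.29 ± 0.12 with CPTH6 (edgeR adjusted p = 0.106, not called) and -0.48 ± 0.12 with ML324 (edgeR adjusted p = 0.0223), and the ML324 call was lost in 5 of 6 fits that left out a library (between 0.0518 and 0.0677).

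Cxcl10 had 65.7, 83.2 and 54.8 CPM with CPTH6 and 44.4, 59.7 and 26.9 CPM with ML324, against 149, 88.9 and 97.3 CPM in untreated PLD. Both treated groups lay below the untreated one. The log2 fold change was -0.72 ± 0.29 with CPTH6 (edgeR adjusted p = 0.1, not called) and -1.31 ± 0.29 with ML324 (edgeR adjusted p = 0.0138), and the ML324 difference was called under all 11 alternatives. Ccl20 had 4.64, 2.12 and 2.25 CPM with CPTH6 and 1.497, 1.07 and 1.89 CPM with ML324, against 2.27, 1.34 and 3.04 CPM in untreated PLD. Its groups overlapped with the untreated one, and changes of 0.44 ± 0.42 and -0.53 ± 0.44 were not called (edgeR adjusted p = 0.493 and 0.438). In range, 6 of the 10 genes did not overlap with untreated PLD for CPTH6 and 6 for ML324, against 42.0% and 37.6% of all genes.

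**Figure D5:**
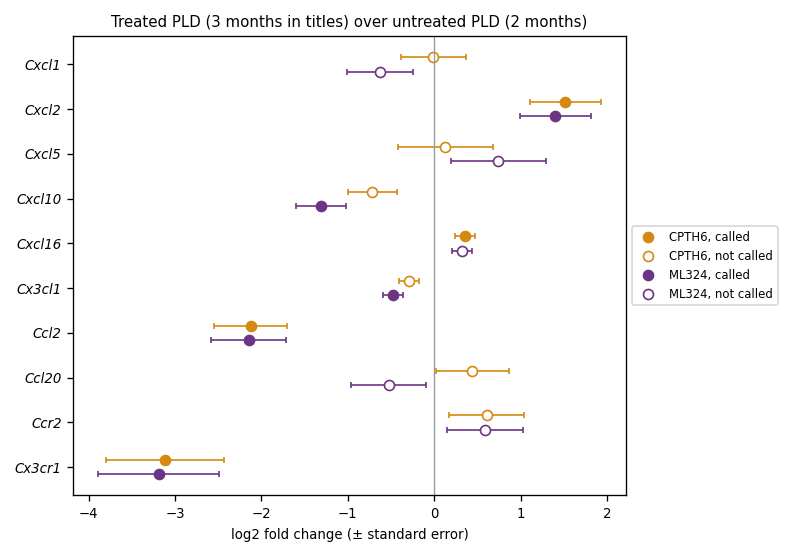
Log2 fold change of CPTH6 and of ML324 over untreated PLD at 2 months for each gene, with the edgeR standard error as whisker (n = 3 libraries per group); filled points were called. Cxcl2 was called above 0 and Ccl2 and Cx3cr1 below 0 with both compounds.

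Between the compounds, at the same labelled time, 0 of the 10 genes and 0% of the 15989 genes tested were called by edgeR. At an unadjusted p under 0.05 there were 2008 genes, of which 1 was of the 10, and DESeq2 called 268 genes and 0 of the 10. That gene was Ccl20, with a log2 fold change of CPTH6 over ML324 of 0.97 ± 0.41 (edgeR adjusted p = 0.388). Its ranges did not overlap, as was so for 20.0% of all genes. The 95% intervals of the difference on the log2 scale ran from -0.22 to 0.29 for Cxcl16, from -0.12 to 0.49 for Cx3cl1, from -0.33 to 0.56 for Cxcl2 and from -0.70 to 0.74 for Ccl2. They ran from -0.02 to 1.20 for Cxcl10 and from -0.08 to 1.32 for Cxcl1. The interval for Cxcl5 ran from -1.54 to 0.32, for Ccr2 from -0.98 to 1.00 and for Cx3cr1 from -0.66 to 0.81.

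Other chemokine genes gave a setting for these values. Of 30 other ligands, 25 were tested in untreated libraries. At 1 month 1 was higher in PLD, Cxcl14 (1.66 ± 0.41), and 0 were lower. At 2 months 2 were higher, the mucosal chemokine Cxcl17 (4.93 ± 0.88, with 10.5 CPM in PLD and 0.332 CPM in WT) and Ccl17 (1.95 ± 0.63), and 3 were lower, including the Ccr7 ligands Ccl19 (-3.26 ± 0.68) and Ccl21a (-4.09 ± 0.83), of which Ccl21a has near-identical copies and is uncertain. All 10 endothelial markers were lower in PLD at 2 months, and their part in these values was not tested. With CPTH6 3 of 24 ligands were higher and 9 lower than in untreated PLD, and with ML324 2 and 8. Cxcl3, a further Cxcr2 ligand, was higher with both (2.18 ± 0.30 and 1.98 ± 0.30), and Cxcl14 was lower with both (-2.61 ± 0.37 and -3.00 ± 0.39). Cxcl12, the stromal ligand of Cxcr4, changed by -2.92 ± 0.44 with CPTH6 and had 41.1 CPM there against 312 CPM in untreated PLD.

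Among 21 other receptors, 14 were tested in untreated libraries. At 2 months 5 were lower and 0 higher in PLD. Of these, 3 were the scavenging receptors Ackr4 (-4.44 ± 0.59), Ackr2 (-3.73 ± 0.57) and Ackr1 (-2.99 ± 0.78), which take up chemokines without signalling to migration, and Ackr2 had 1.49 ± 0.976 CPM in PLD and 20.2 ± 8.65 CPM in WT. Of 13 receptors tested, 2 were lower with CPTH6 and 2 with ML324, in each case Ccrl2 (-0.86 ± 0.21 and -1.04 ± 0.21) and Cxcr4 (-0.91 ± 0.27 and -0.98 ± 0.27).

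Of the genes that govern shedding of the transmembrane ligands, Rhbdf1 (0.84 ± 0.14) and Rhbdf2 (0.81 ± 0.15), which encode carriers of Adam17 to the cell surface, were higher in PLD at 2 months, and the other 3 of the list were not called. Against untreated PLD, 1 of the 5 was called higher and 2 lower with CPTH6, and 1 higher and 1 lower with ML324. Timp3, an inhibitor of Adam17, was lower with both compounds (-1.28 ± 0.12 and -1.16 ± 0.12). Adam17 averaged 60.4 CPM with CPTH6, 62.7 CPM with ML324 and 78.2 CPM in untreated PLD. Adam10 averaged 121, 133 and 142 CPM and Rhbdf2 274.5, 279.9 and 211 CPM in the same order. What this means for shedding was not tested. Of 20 genes of NF-kB feedback and its inducers, 0 were called at 1 month by edgeR, 6 had an unadjusted p under 0.05 and DESeq2 called 1. At 2 months 3 were higher in PLD, Zc3h12a, whose product degrades cytokine mRNAs (1.03 ± 0.20), Relb (0.49 ± 0.15) and the IL-17 receptor gene Il17ra (0.50 ± 0.17), and Il1a was lower (-1.08 ± 0.36). With CPTH6 6 were higher and 2 lower, and with ML324 4 and 2. Csf3, the neutrophil growth factor G-CSF, was higher with both (3.13 ± 0.50 and 2.19 ± 0.50), Nfkb2 was higher with both (0.75 ± 0.11 and 0.48 ± 0.11), and Tnf was lower with both (-1.05 ± 0.25 and -1.42 ± 0.26). Of 10 genes of the interferon gamma axis, which drives Cxcl10, 2 were higher in PLD at 2 months, Cd274 (1.01 ± 0.27) and Ifngr2 (0.63 ± 0.18). With CPTH6 1 was higher and 4 lower, and with ML324 2 were lower, Irf8 changing by -1.93 ± 0.23 and -1.97 ± 0.23. Tissue dissociation is known to induce chemokine and immediate early genes. Of 15 such genes 2 were called lower in PLD at 1 month by edgeR, Egr1 (-1.35 ± 0.28) and Egr2 (-1.05 ± 0.22), while 7 had an unadjusted p under 0.05 and DESeq2 called 6. The list summed to 23150 to 26390 CPM in PLD and 26530 to 43280 CPM in WT libraries at 1 month, without overlap. At 2 months 1 was higher and 1 lower, and the sums were 19360 to 36570 CPM in PLD and 23670 to 27710 CPM in WT libraries. The part of these genes in the ligand values was not tested.

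Likeness of pattern was measured over the 18 libraries as the mean absolute difference between log2 CPM profiles, each centred on its mean, among 13582 genes. Nearest to Cxcl16 were Fbxo45 (0.088), Farp1 (0.096) and Fnbp1l (0.101), where the profile of Cxcl16 itself deviated by 0.497 from its mean. Nearest to Cx3cl1 were Pnpla2 (0.164), Rab11fip5 (0.175) and Pag1 (0.176). The receptor Cx3cr1 was nearest to Cd4 (0.43), Gpr34 (0.459) and Lyl1 (0.475), with an own deviation of 1.73. For Ccr2 the nearest were Ush1c (0.303), Foxred2 (0.307) and Tspoap1 (0.359), with an own deviation of 0.559. For Ccl2 they were Axl (0.348), P2rx7 (0.369) and Wipf1 (0.372), and for Cxcl10 Sdc2 (0.305), Ccrl2 (0.317) and Cdk14 (0.329). All 18 libraries share a tissue and a protocol, and these distances describe them only.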

How the data were processed

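The authors' deposited values are a count of read pairs per gene in each of 18 libraries. Per the submitters' processing notes, reads were aligned to mm10 with STAR 2.7.4a, handled with SAMtools 1.12, counted with featureCounts 1.6.0 and tested with DESeq2 1.26.0. Per the file headers, counting used read pairs and GENCODE vM25, without strand, and no option to count reads that fit several places or genes.

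The tests used edgeR 4.0.16 (R 4.3.3): filterByExpr, TMM scaling, a quasi-likelihood F-test and Benjamini-Hochberg adjustment over all genes tested, with calls at 0.05. The 12 untreated libraries shared a fit (8 residual degrees of freedom), CPTH6 and ML324 a fit of 6 (4), and the treated groups with untreated PLD at 2 months a fit of 9 (6). Standard errors are the log2 fold change over the square root of F. CPM uses TMM over 18 libraries, and its log2 has a prior count of 2. Total counts of 16345740 to 29277311 set the precision, which is low for Ccl20 and Ccr2. DESeq2 1.42.0 was an alternative, with other scaling, no filter, a replicate block, and fits with fewer libraries or groups. Steps were tested on simulated data.

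The 10 genes and all lists were chosen with earlier results of these data known. All 10 were named in every comparison, with up to 4 called genes of smallest adjusted p per other list (2 where none was called), the paired receptors, and the 3 nearest genes in pattern with a mean of at least 1 CPM; other counts and examples are given in part. Names came for 55141 genes, and all 199 listed symbols matched. No libraries were identical. Files hold 0 unused columns of sample values. Some results are not reported here.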

Additional observations from a re-analysis of the deposited data

How the results depend on the processing

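The direction of every called value of the 10 genes was kept under all alternatives run. Of 970 values under alternatives, 0 called values changed sign, 32 lost the call, 26 gained one and 912 stayed on the same side of the threshold, among them 77 sign changes of values called in neither fit. The causes of these shifts were not tested. Depth limits Ccr2 and Ccl20, with counts as low as 17 and 1.

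With DESeq2, 2157 genes and 4 of the 10 were called for PLD against WT at 1 month (892 and 2 in edgeR), 3086 genes for time in PLD (1706), 642 genes in WT over time (9), 2070 for the interaction (1008) and 268 for CPTH6 against ML324 (0). With no filter on low counts, 2194 genes and 6 of the 10 were called at 1 month. At 2 months 5 of the 10 were called with no filter. The main fit called 3 of the 10 and 40.0% of all genes there, a share that does not belong to the fit with no filter. For time in PLD 2818 genes and 3 of the 10 (Cxcl1, Cxcl10, Cx3cr1) were called, and for time in WT 1224 and 3 (Cxcl1, Cxcl2, Cxcl10). There were 2282 genes called for the interaction and 232 between the compounds. Against untreated PLD, that fit also called Cxcl10 with CPTH6 and Cxcl1 and Cxcl5 with ML324. Its standard errors could be far smaller at a like fold change, as for Cxcl5 with ML324 (0.14, against 0.55 in the main fit). In fits of only the groups compared, 29 genes and 0 of the 10 were called at 1 month, 3811 and 1 for time in PLD, and 0 genes for time in WT. With both WT libraries that stood apart left out (replicate 3 of 1 month, replicate 1 of 2 months), 3541 genes were called at 1 month, 3861 and 1 of the 10 for time in PLD, 184 genes for time in WT, and 1 of the 10 in the interaction.

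Leaving out a library at a time, calls ranged from 99 to 3485 genes and 0 to 3 of the 10 at 1 month, the 3485 being without WT replicate 3. They ranged from 135 to 644 genes for time in PLD, from 0 to 389 genes in WT over time, 100 to 1413 genes and 0 to 1 of the 10 for the interaction, and 0 to 3 genes between the compounds. For CPTH6 against untreated PLD the ranges were 2490 to 3284 genes (3818 with all) and 2 to 3 of the 10 (4 with all), and for ML324 1939 to 3043 genes (3203) and 3 to 4 of the 10 (5). At 2 months the range was 5324 to 6350 genes (7091) and 3 of the 10 throughout.

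Replicate numbers are shared between groups, but same-numbered libraries did not deviate together in every pair: correlations ran from -0.541 to 0.43 in the untreated fit (over 0.1 in 5 of 18 pairs), from 0.018 to 0.225 between the compounds (1 of 3) and from -0.059 to 0.225 among treated and untreated PLD (3 of 9). A library correlated best with its own number in 8 of 36, 3 of 6 and 11 of 18 cases in these fits, a hint from the data in the last and not from the design, so the libraries are taken to share only a number. With the replicate block, 1 of the 10 was called at 1 month, Ccr2 being no longer called (adjusted p = 0.0595), and 965 genes were called for 2 months against 1 month in PLD, 0 genes for the same in WT, 426 for the interaction and 1 between the compounds.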

Other observations

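Pairs of ligand and receptor can be read side by side as values only. Ackr1, a receptor that takes up Ccl2, Cxcl1 and Cxcl5 and is typical of venous endothelium, had 10.1 ± 5.17 CPM in PLD and 17.2 ± 12.8 CPM in WT at 1 month, and 2.17 ± 1.17 CPM in PLD and 17.5 ± 10.3 CPM in WT at 2 months (SD, n = 3). Within the WT group at 1 month it had 3.52 CPM in replicate 3, against 28.9 and 19.1 CPM in the others. Of the genes most like Cxcl1, Cxcl2, Cxcl5 and Ccl20 in pattern over the libraries, the nearest to each were Cald1, Hilpda, Dlgap5 and Ect2 in that order, at mean absolute log2 differences of 0.297, 0.377, 0.604 and 0.369.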
